A study of Mus musculus with 90 samples.

Results

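The genes described here are 6 plasma cell and immunoglobulin genes, Jchain, Ighm, Mzb1, Prdm1, Xbp1 and Sdc1, followed through subcutaneous melanoma tumours from mice given an antibody against PD-L1. They were chosen by name, and every probe set annotated to one of them alone was taken. All 6 had a probe set, which gave 22 probe sets of the 45037 non-control probe sets on the Affymetrix mouse array and 6 of the 18193 genes that could be named. Of the 22, Ighm had 11, Xbp1 and Sdc1 had 4 each, and Jchain, Mzb1 and Prdm1 had 1 each. Another 4 probe sets were shared with other genes and were left out.

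The 90 arrays came from tumours of 1 genotype, an Hgf transgene together with Cdk4 R24C on both alleles, in B6.cBrd mice, and all 7 groups shared this background. The labels do not name the promoter of the transgene or say whether the allograft was 1 line. The PBS group (10 ml/kg) had 7 samples and the control group given normal IgG (10 mg/kg) had 22. The anti-mouse PD-L1 antibody, a mouse IgG1 with the D265A change, was given at 10 mg/kg to the other groups. Of these, 27 samples were Responder, with a tumour volume decrease of at least 5%, and 3 were Stabilization, a type of response in which consecutive measurements showed no volume change. The 23 NonResponder tumours grew under the antibody and were harvested at times matched to the responders, after 2 to 12 doses. The 6 Relapse tumours regrew after regressing below measurable size, with harvest after 4 to 10 doses. The 2 GrowthDelay samples were from mice whose tumours appeared only after treatment. Whether the arrays are 90 separate mice is not stated, so p-values measure the spread between these samples.

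Plasma cells are the end stage of the B cell lineage and secrete antibody. Prdm1 encodes BLIMP-1, the repressor that ends the B cell program, and Xbp1 encodes a transcription factor that enlarges the secretory pathway. Ighm encodes the constant part of the IgM heavy chain, Jchain the small chain that joins antibody units into pentamers of IgM and dimers of IgA, and Mzb1 a chaperone of the endoplasmic reticulum that helps antibody assembly. Sdc1 encodes syndecan-1 (CD138), a surface proteoglycan used to identify plasma cells and also made by epithelial and stromal cells. Prdm1 is also active in T cells and myeloid cells, and Xbp1 in secretory cells of many kinds.

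In the RefSeq annotation of GRCm38, Jchain lies on chromosome 5 from 88519809 to 88527897 and Ighm on chromosome 12 from 113418826 to 113422730. Xbp1 lies on chromosome 11 from 5520641 to 5525993, Prdm1 on chromosome 10 from 44437174 to 44528558 and Sdc1 on chromosome 12 from 8771396 to 8793716. Ighm is annotated there as a constant region segment and the other members as protein-coding genes.

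The 250 bases before a RefSeq start were searched in 4 of the members for 3 short motifs on both strands. These were ACGTG, the core of the element bound by XBP1 and ATF6, ATGCAAAT, the octamer of immunoglobulin promoters, and the E-box CAGGTG. Ighm had no entry in the promoter table used, and Jchain and Prdm1 are shown because they are, of the 4, those with the largest differences between Responder and NonResponder samples. Capitals mark the match to ACGTG on the opposite strand in Jchain (chr5:88527898-88528147, minus strand, GRCm38.p6) and to CAGGTG in Prdm1 (chr10:44458749-44458998, minus strand, GRCm38.p6). The Prdm1 start used by the table lies inside the annotated span of the gene.
Jchain: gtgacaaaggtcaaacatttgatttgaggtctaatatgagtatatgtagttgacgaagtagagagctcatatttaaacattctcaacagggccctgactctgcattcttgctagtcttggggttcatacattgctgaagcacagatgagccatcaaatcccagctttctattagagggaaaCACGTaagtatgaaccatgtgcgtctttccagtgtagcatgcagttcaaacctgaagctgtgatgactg
Prdm1: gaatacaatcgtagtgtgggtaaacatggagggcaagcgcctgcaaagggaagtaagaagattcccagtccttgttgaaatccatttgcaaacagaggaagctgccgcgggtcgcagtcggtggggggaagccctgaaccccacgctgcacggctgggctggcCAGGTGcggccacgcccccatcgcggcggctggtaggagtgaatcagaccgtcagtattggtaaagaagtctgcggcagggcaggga
The Jchain match began 69 bases before the start and the Prdm1 match 87 bases before it. Xbp1 held 1 CAGGTG, 131 bases before its start, Sdc1 held none of the 3 motifs, and the octamer was in none of the 4 windows. Among 32851 promoter windows of the same length, 16.6% held ACGTG, 1.6% the octamer and 17.2% CAGGTG, so single matches of the first and the last are common. A match is a description of the letters only.

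Values are the deposited log2 intensities, and differences are on the log2 scale. Where a gene had several probe sets, the brightest on average was used for it. Sample titles are numbers in 4 ranges, here called title series, whose meaning the labels do not give. A larger series of 53 arrays and a smaller one of 25 both held Responder, NonResponder and Relapse samples. The remaining 8 control IgG arrays and 4 PBS arrays had a range each, GrowthDelay lay only in the larger series, and Stabilization only in the smaller one. The title series was a term of the model, and a difference was called at an adjusted p under 0.05 (limma, two-sided, Benjamini-Hochberg over all 18193 genes). The melanocyte genes had a mean log2 value of 9.81 to 10.50 in the NonResponder samples and went down to 6.70 in a Responder and 6.95 in a Stabilization sample, outside the 3 arrays described next.

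Single arrays stood apart in most of these genes, and in B cell genes as well, and are given first. Glycam1, a mucin of the high endothelial vessels of lymph nodes, had a log2 value of 11.88 in NonResponder replicate 14, 12.49 in Responder replicate 20 and 10.19 in Relapse replicate 6, and at most 5.26 in the other 87 arrays. In NonResponder replicate 14 the Jchain log2 value was 13.52, against 4.21 to 7.70 in the other 13 NonResponder arrays of its series, and Mzb1 was 13.04 against 6.00 to 6.78. Its Xbp1 value was 13.38 against 11.03 to 11.99, and its Prdm1 value 8.77 against 4.96 to 5.84. So 1 tumour labelled as not responding held the highest Xbp1 value and the second highest Jchain and Mzb1 values of the series.

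Responder replicate 20 was alike, with a Jchain log2 value of 13.62 against 5.95 to 10.996 in the other 9 Responder arrays of its series and an Mzb1 value of 13.23 against 6.91 to 8.86. Relapse replicate 6 differed less in the members, with Jchain at 10.24 beside 8.45 and 10.00 in the other Relapse arrays of its series. Its Mzb1 value of 8.59 was above 6.95 and 7.61 there, and its Xbp1 value of 11.77 was below both 11.82 and 12.06. Ms4a1, which encodes the B cell surface protein CD20, was at 12.30, 12.65 and 9.51 in these 3 arrays and at 4.26 to 6.56 in the other arrays of their groups and series. The part of lymph node or B cell RNA in the member values of these arrays was not tested. Most group comparisons below are given with all arrays and without these 3. Overlap counts of Responder samples, single correlations and nearest genes are given only without them. The comparisons of Relapse with Responder, GrowthDelay with NonResponder and control IgG with PBS are given only with all arrays. Named list genes are not given in both ways.

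Without the 3 arrays, the Jchain log2 value had its lowest, median and highest values at 4.21, 6.09 and 9.50 in the 22 NonResponder samples and at 4.36, 8.12 and 10.996 in the 26 Responder samples. The ranges overlapped, with 23 of 26 Responder samples above the NonResponder median and 5 above the highest NonResponder sample. Ighm had 6.83, 7.96 and 10.53 in the NonResponder samples and 6.94, 9.72 and 12.59 in the Responder samples. Of the Responder samples, 23 were above the NonResponder median of Ighm and 10 above its highest value. Mzb1 moved over a narrower range, from 6.00 through a median of 6.52 to 7.82 in NonResponder and from 6.29 through 7.0 to 8.86 in Responder samples. The Mzb1 value was above the NonResponder median in 23 Responder samples and above the NonResponder maximum in 5.

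The regulators and the surface marker did not all show the same separation. Prdm1 had the clearest one, at 4.96, 5.30 and 6.00 (lowest, median and highest) in NonResponder against 5.12, 6.43 and 8.68 in Responder samples. For Prdm1, 16 of the 26 Responder samples lay above every NonResponder sample and 24 above the NonResponder median. Xbp1 was at 11.03, 11.66 and 11.99 in NonResponder and 11.19, 11.83 and 12.37 in Responder samples, with 7 Responder samples above the NonResponder maximum. Sdc1 was at 8.61, 8.95 and 9.64 against 8.71, 9.24 and 10.51, and 2 Responder samples were above the NonResponder maximum. The NonResponder median of Sdc1 was 9.30 in the larger and 8.75 in the smaller series, so this pooled count mixes different levels.

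**Figure D1:**
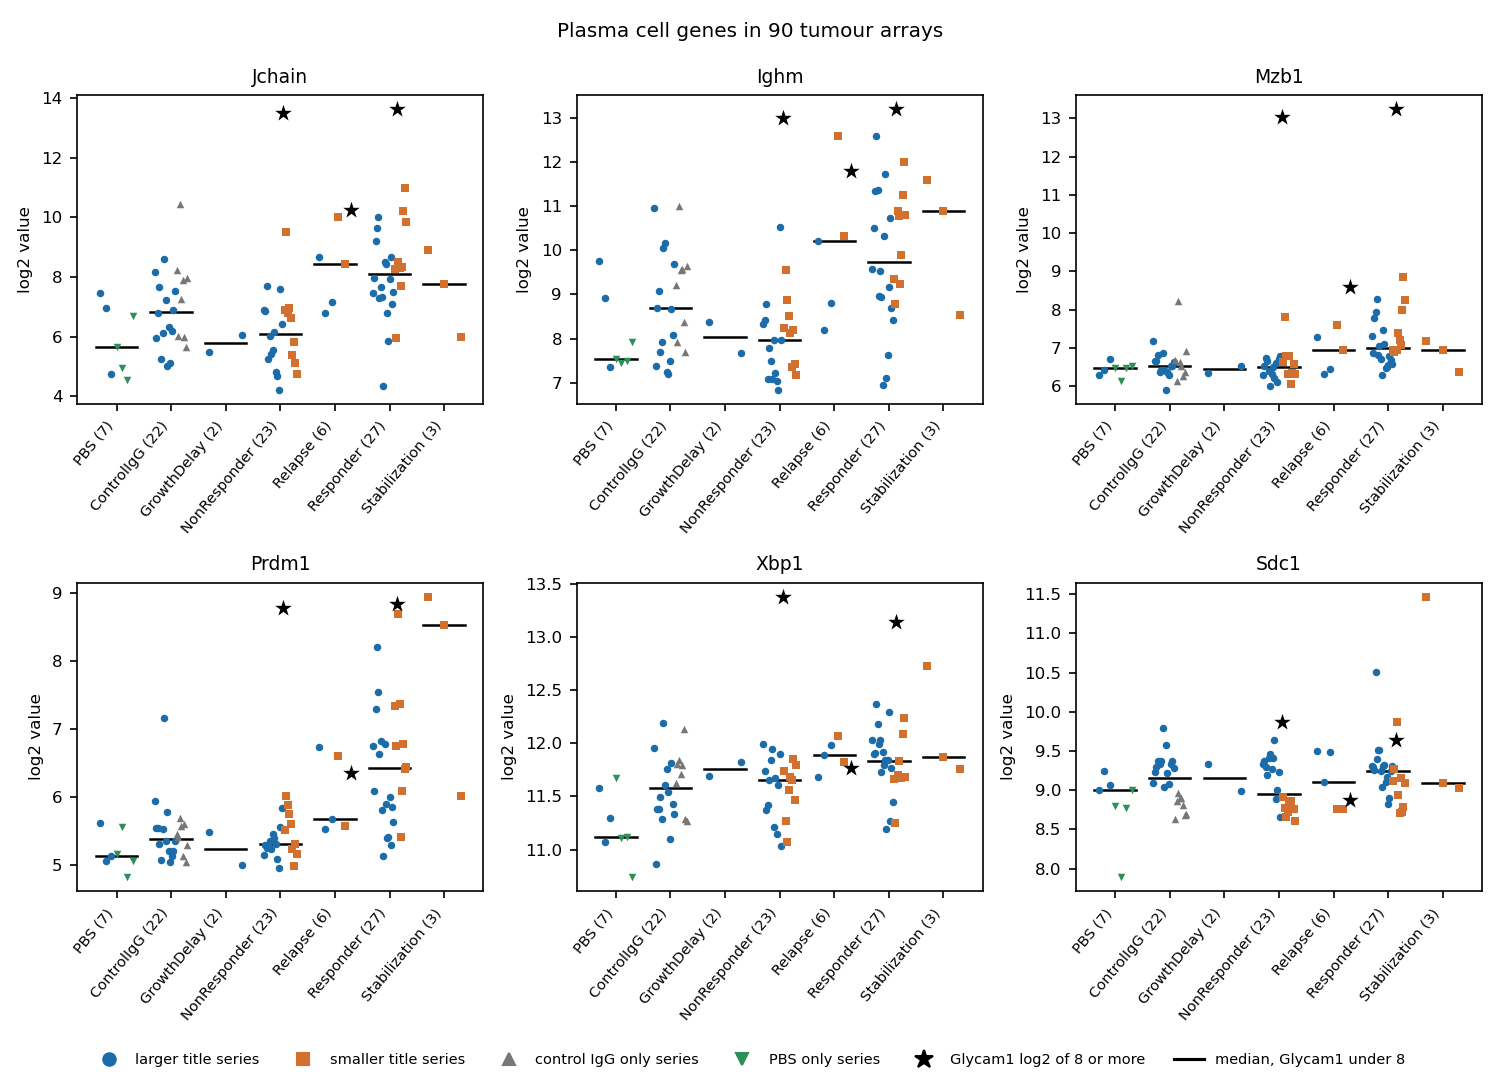
Log2 values of the 6 genes in each of the 90 arrays, by treatment group (number of arrays in brackets), with colours and shapes for the title series, stars for the 3 arrays with a Glycam1 log2 value of 8 or more and lines at the median of the other arrays. The stars of NonResponder replicate 14 and Responder replicate 20 lie above 13 for Jchain, Mzb1 and Xbp1. Without the starred arrays, the Prdm1 median of the Responder samples, 6.43, lies above the NonResponder maximum of 6.00. The star of NonResponder replicate 14 lies higher, at 8.77.

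Between Responder and NonResponder samples the question is which genes go with regression under the antibody. With all arrays, 3 of the 6 members were higher in the Responder samples, where 17.2% of all genes were. Ighm was higher by 1.79 ± 0.38 (SE, adjusted p = 0.000469, limma), a fold of 3.45, Jchain by 1.82 ± 0.45 (adjusted p = 0.00175), a fold of 3.53, and Prdm1 by 1.01 ± 0.22 (adjusted p = 0.000495), a fold of 2.02. Mzb1 (0.61 ± 0.30, adjusted p = 0.0842), Xbp1 (0.21 ± 0.11, adjusted p = 0.0939) and Sdc1 (0.15 ± 0.10, adjusted p = 0.207) did not pass. No member was lower.

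Without the 3 arrays with high Glycam1, 5 of the 6 were higher, where 19% of all genes were. Jchain was higher by 1.97 ± 0.37 (adjusted p = 3.64e-05), Ighm by 1.91 ± 0.35 (adjusted p = 2.32e-05) and Prdm1 by 1.09 ± 0.18 (adjusted p = 8.56e-06). Mzb1 changed little in size, 0.68 ± 0.14, but its standard error was smaller and it passed (adjusted p = 9.2e-05), as did Xbp1 (0.24 ± 0.09, adjusted p = 0.0196). As folds these are 3.91 for Jchain, 3.76 for Ighm, 2.12 for Prdm1, 1.61 for Mzb1 and 1.18 for Xbp1, and Sdc1 again did not pass (0.16 ± 0.10, adjusted p = 0.186). In whole tumour tissue, more plasma cells, more of other cells that express these genes and more RNA of these genes per cell cannot be told apart.

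Within the larger series, 0 of the 6 were called with all arrays (limma, 3 at an unadjusted p under 0.05), where 0.616% of all genes were called higher. Jchain differed there by 1.24 (adjusted p = 0.157) and Mzb1 by 0.09. Of the arrays with high Glycam1, this series held only NonResponder replicate 14. Without those arrays 4 of 6 passed in this series, beside 7.36% of all genes, and Jchain was then higher by 1.78 ± 0.47 (adjusted p = 0.00898), Ighm by 1.73 ± 0.44 (adjusted p = 0.00713), Prdm1 by 0.95 ± 0.24 (adjusted p = 0.00672) and Mzb1 by 0.56 ± 0.17 (adjusted p = 0.0216). Without NonResponder replicate 14 alone, a setting added after the data were seen, 3 of 6 passed, beside 6.4% of all genes. Jchain was then higher by 1.78 ± 0.50 (adjusted p = 0.0146), Ighm by 1.73 ± 0.45 (adjusted p = 0.00881) and Prdm1 by 0.95 ± 0.25 (adjusted p = 0.00929), while Mzb1, at 0.56 ± 0.29, did not pass (adjusted p = 0.139).

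Within the smaller series, the same 4 genes were higher with all arrays, beside 14.3% of all genes, by 2.75 ± 0.73 for Jchain, 2.45 ± 0.61 for Ighm, 1.52 ± 0.35 for Prdm1 and 1.45 ± 0.48 for Mzb1 (adjusted p = 0.00174 to 0.0163). Without the arrays with high Glycam1, here Responder replicate 20 and Relapse replicate 6, the same 4 were called, beside 11.2% of all genes, by 2.26 ± 0.60, 2.16 ± 0.56, 1.32 ± 0.30 and 0.88 ± 0.22 in the same order. Mzb1 thus lost most in size when these arrays were left out. In the smaller series, without these arrays, 8 of 9 Responder samples lay above every NonResponder sample for Prdm1 and 6 of 9 for Ighm. It was 6 of 9 for Sdc1 too, whose difference was not called, 3 of 9 for Jchain and Mzb1 and 2 of 9 for Xbp1. In the larger series 1 of 17 did so for Sdc1. The difference between the series was tested directly, and no member passed (limma, 1 at an unadjusted p under 0.05). The largest difference was that of Jchain, 1.51 ± 0.92 more in the smaller series (adjusted p = 0.441). The smallest p was that of Mzb1 at 1.36 ± 0.61 (adjusted p = 0.35), and without the 3 arrays the lowest adjusted p of the 6 was 0.948.

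**Figure D2:**
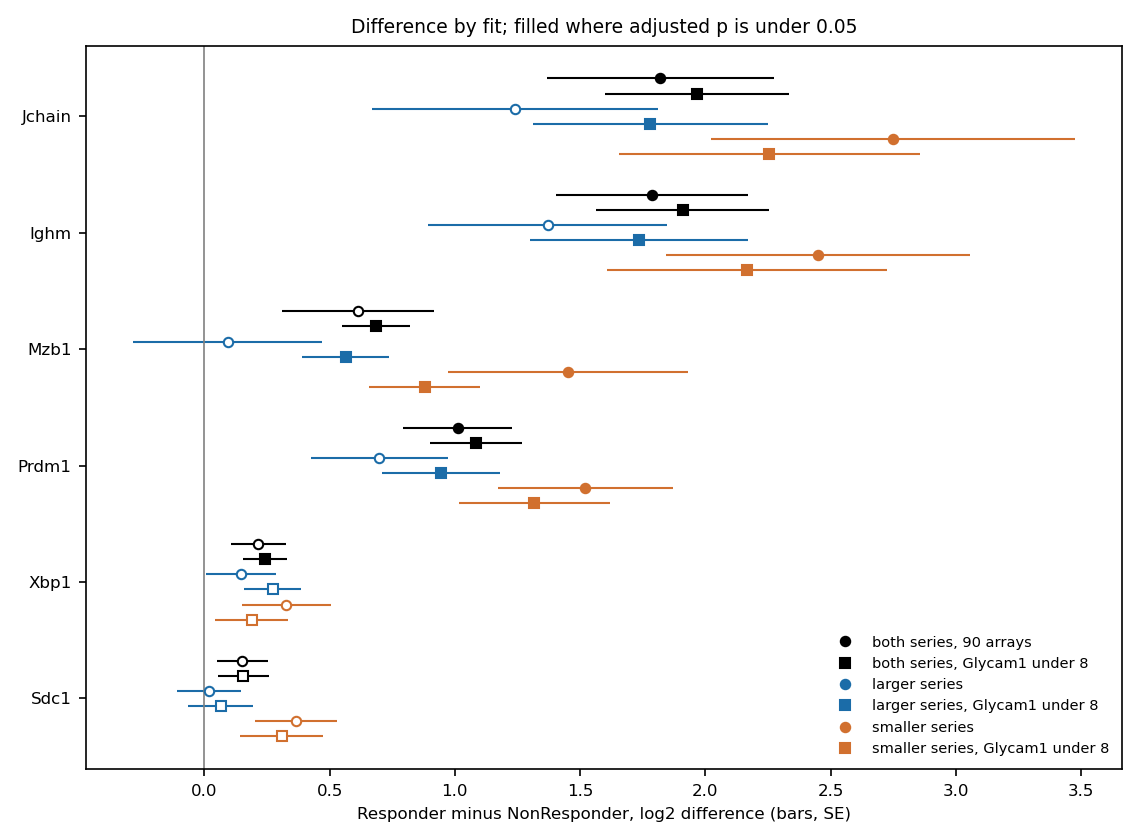
Responder minus NonResponder log2 difference of each gene with its SE in 6 fits: both series together, the larger and the smaller series, each with all arrays (circles) and without the arrays with high Glycam1 (squares). Filled symbols have an adjusted p under 0.05, and in the larger series the symbols of Jchain, Ighm, Mzb1 and Prdm1 are filled only without the arrays with high Glycam1.

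Which parts of heavy chain transcripts the 11 Ighm probe sets read is not given in the sources used here. With all arrays and every probe set fitted, 3 of the 11 were higher in Responder samples and 2 were lower, where 14.1% of all probe sets were higher. Without the 3 arrays with high Glycam1, 7 were higher, beside 15.6% of all probe sets, and 2 were lower, beside 29.2%. The 3 with the largest differences were higher by 2.13 ± 0.35 for 1427329_a_at (adjusted p = 6.3e-06 over 45037 probe sets), 2.10 ± 0.39 for 1425385_a_at and 1.91 ± 0.35 for 1427351_s_at.

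A second set of 4 Ighm probe sets, 1425247_a_at, 1425324_x_at, 1427756_x_at and 1427870_x_at, was higher by 0.68 to 1.05. These 4 ranked the 87 arrays much alike, with a Spearman rho of 0.87 to 0.91 among themselves and of 0.55 to 0.64 with 1427351_s_at, while 1427351_s_at and 1427329_a_at had a rho of 0.98. Probe sets named _s_at or _x_at can match more than 1 transcript, so RNA of other heavy chain segments cannot be told apart in them. The lower ones, 1451949_at by -0.15 (adjusted p = 0.0064) and 1426196_at by -0.17 (adjusted p = 0.018), had the lowest mean log2 values of the 11.

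Of the 4 Xbp1 probe sets, 1437223_s_at (0.30, adjusted p = 0.0036), 1420011_s_at (0.28, adjusted p = 0.008) and 1420886_a_at (0.24, adjusted p = 0.023) were higher without the 3 arrays, and 1420012_at was not called (0.11, adjusted p = 0.46). Sdc1 had 0 of 4 called between Responder and NonResponder samples.

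**Figure D3:**
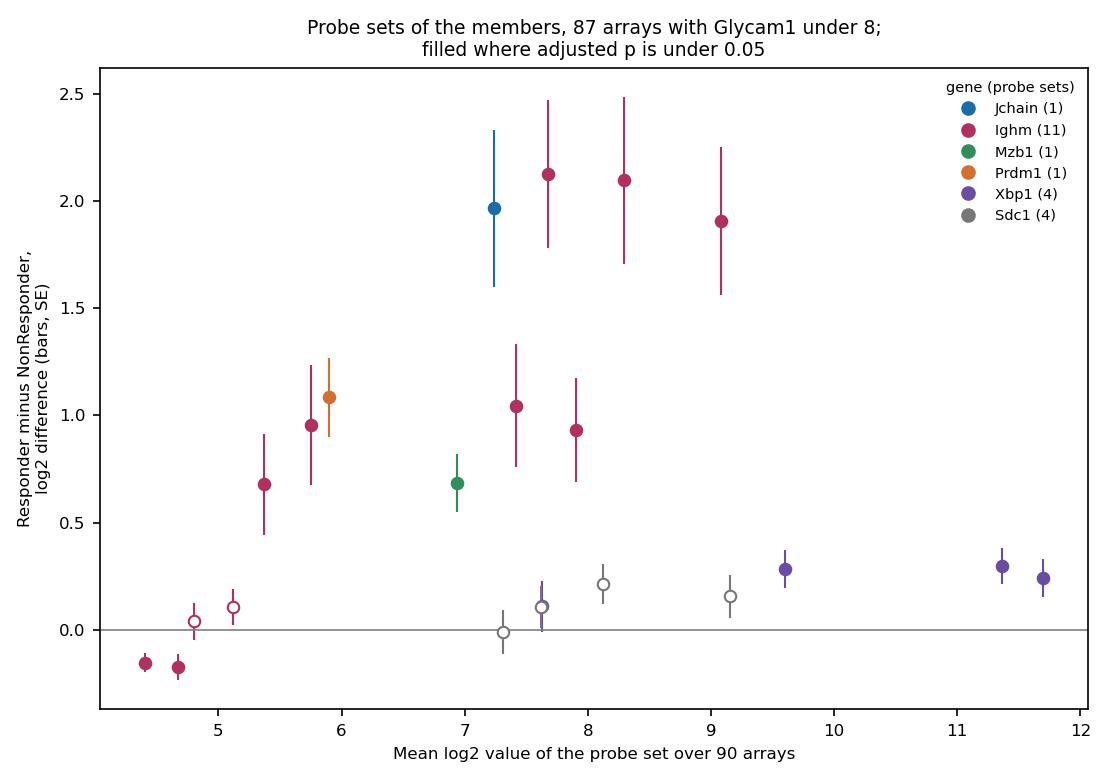
Responder minus NonResponder log2 difference with its SE for each of the 22 probe sets of the 6 genes, over the 87 arrays with a Glycam1 log2 value under 8, against the mean log2 value of the probe set. Filled symbols have an adjusted p under 0.05, and the 3 highest points for Ighm, at 1.91 to 2.13, lie near the point of Jchain at 1.97.

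Responder samples were next compared with the control IgG samples, which asks what separates regressing tumours from tumours without PD-L1 blockade. In the 22 control samples Jchain ran from 5.02 through a median of 6.85 to 10.45, Ighm from 7.19 through 8.68 to 11.01 and Prdm1 from 5.03 through 5.37 to 7.16. The control IgG medians of Jchain and Ighm lay between those of the NonResponder and Responder samples. With all arrays 3 of 6 members were higher in the Responder samples, beside 14.5% of all genes. These were Prdm1 by 0.90 ± 0.26 (adjusted p = 0.00833), Xbp1 by 0.37 ± 0.13 (adjusted p = 0.0249) and Ighm by 1.13 ± 0.46 (adjusted p = 0.0466), with Jchain at 1.32 ± 0.55 just outside (adjusted p = 0.0504).

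Without the 3 arrays, 5 of 6 were called, beside 15.4% of all genes, with Prdm1 higher by 0.82, Xbp1 by 0.32, Mzb1 by 0.51, Jchain by 1.16 and Ighm by 1.04 (adjusted p = 0.00425 to 0.0404). Control IgG and Responder samples met within 1 title series only in the larger one. There 1 of 6 was called with all arrays (Prdm1 by 0.75, adjusted p = 0.0352), beside 10.9% of all genes. Without NonResponder replicate 14, which enters the shared spread, and the other arrays with high Glycam1, 3 of 6 were called, beside 12.9%, namely Mzb1 by 0.47, Prdm1 by 0.75 and Xbp1 by 0.34. Ighm (adjusted p = 0.0558) and Jchain (adjusted p = 0.0546) then lay just outside.

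NonResponder samples and control IgG samples gave 0 of 6 members, beside 0.0% of all genes (limma, 0 at an unadjusted p under 0.05, 0 by robust regression). Without the 3 arrays, Ighm was at -0.87 ± 0.43 with an unadjusted p of 0.0461, and 0 members passed the adjustment. The medians of the NonResponder samples were below the control IgG medians for Jchain, 6.09 against 6.85, and for Ighm, 7.96 against 8.68, with ranges that overlapped almost wholly.

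The 2 control treatments gave 0 of 6 members, beside 0.0055% of all genes, with differences of -0.08 to 0.25 (limma, 0 at an unadjusted p under 0.05, 0 by robust regression). In the 7 PBS samples Jchain ran from 4.56 through 5.67 to 7.47, Ighm from 7.35 through 7.55 to 9.75 and Mzb1 from 6.14 through 6.47 to 6.70. Prdm1 was at 4.81, 5.12 and 5.6 there, Xbp1 at 10.74, 11.12 and 11.67 and Sdc1 at 7.89, 9.0 and 9.24. The PBS medians were the lowest of the 7 groups for Jchain, Ighm, Xbp1 and Prdm1, and only 3 PBS arrays shared a title series with another group.

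Without replicate 6, the median Relapse sample had a Jchain value of 8.45 and an Ighm value of 10.20, beside 8.12 and 9.72 in the Responder samples. Jchain was 8.66, 6.81 and 7.17 in the 3 samples of the larger series and 10.00, 8.45 and 10.24 in the 3 of the smaller one. Ighm was 10.20, 8.18 and 8.81 in the larger series and 12.59, 10.32 and 11.78 in the smaller one. For Ighm all 3 of the smaller series lay above the 9 NonResponder samples of that series, whose maximum was 9.56. Without replicate 6, which had high Glycam1, this rests on 2 Relapse samples. The share of all genes that separate these samples was not counted. Prdm1 did not separate in this way, at 6.73, 5.53 and 5.67 in the larger and 6.59, 5.57 and 6.35 in the smaller series.

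Against the NonResponder samples, which also entered the comparison with the Responder samples, 2 of 6 members were higher in Relapse, beside 8.43% of all genes. Ighm was higher by 2.02 ± 0.62 (adjusted p = 0.0238) and Jchain by 1.98 ± 0.73 (adjusted p = 0.0454), and without the arrays with high Glycam1 by 2.03 ± 0.59 (adjusted p = 0.025) and 2.07 ± 0.63 (adjusted p = 0.0289), beside 5.68% of all genes. In the larger series 0 of 6 passed, beside 0.0% of all genes, with Ighm at 0.81 and Jchain at 1.04. In the smaller series both passed, beside 4.57% of all genes, by 3.41 ± 0.88 for Ighm (adjusted p = 0.0134) and 3.14 ± 1.05 for Jchain (adjusted p = 0.0399). Without the arrays with high Glycam1 only Ighm passed there, by 3.30 ± 0.93 (adjusted p = 0.0417), beside 0.335% of all genes, with Jchain at 2.80 ± 1.0 (adjusted p = 0.0941). The difference between the series passed for no member (Ighm 2.59 ± 1.22, unadjusted p = 0.0364, adjusted p = 0.978, limma).

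Relapse against control IgG gave 0 of 6, beside 10.5% of all genes with all arrays and 5.66% without the 3 (limma, 1 at an unadjusted p under 0.05, 2 by robust regression). Ighm differed by 1.37 ± 0.68 (adjusted p = 0.118) and Jchain by 1.48 ± 0.81 (adjusted p = 0.151). Relapse against Responder gave 0 of 6, beside 0.0% of all genes, with differences of -0.51 to 0.23 (limma, 0 at an unadjusted p under 0.05, 0 by robust regression). With 6 samples over 2 series, this does not show that relapsed and regressing tumours held the same levels.

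The 3 Stabilization samples showed another pattern among the members, led by Prdm1 and Sdc1. Prdm1 was 8.94, 8.52 and 6.01 in replicates 1 to 3, and Sdc1 was 11.47, 9.10 and 9.03. On the probe sets used, all 3 lay above the highest NonResponder value of the smaller series, 6.001 for Prdm1 and 8.91 for Sdc1. For Prdm1 replicate 3 was only just above, at 6.010. For Sdc1 this depended on the probe set. On 1448158_at replicates 2 and 3 were at 6.72 and 7.14, below NonResponder replicate 22 at 7.35. On 1415944_at they were at 7.68 and 7.51, below NonResponder replicate 15 at 7.705. The share of all genes that separate these groups was not counted. Ighm was 11.58, 10.89 and 8.52, Jchain 8.92, 7.75 and 6.00, Mzb1 7.18, 6.96 and 6.38 and Xbp1 12.72, 11.87 and 11.76. Replicate 1 was the highest of the 3 for every member and held the highest Sdc1 value of all 90 arrays.

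Against NonResponder samples, 2 of 6 members were higher in Stabilization, beside 10.5% of all genes, Prdm1 by 2.08 ± 0.49 (adjusted p = 0.00363) and Sdc1 by 1.0 ± 0.23 (adjusted p = 0.00301). Jchain differed by 0.55 and Mzb1 by -0.27, and neither passed. Without the arrays with high Glycam1, 4 of 6 passed, beside 14.4% of all genes, Prdm1 by 2.24 ± 0.41 (adjusted p = 9.96e-05), Sdc1 by 1.04 ± 0.22 (adjusted p = 0.000458), Ighm by 1.93 ± 0.76 (adjusted p = 0.0426) and Xbp1 by 0.57 ± 0.20 (adjusted p = 0.0198). All 4 Sdc1 probe sets were higher with all arrays, by 0.69 to 1.0, beside 8.25% of all probe sets.

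The Stabilization calls changed with single samples. Without replicate 1, 0 of 6 members passed, and 0.0055% of all genes were higher in place of 10.5%, so the loss held for nearly every gene (limma, Prdm1 1.52 with adjusted p = 0.458, Sdc1 0.20 with adjusted p = 0.659). Without replicate 2 only Sdc1 passed (1.39), beside 2.96% of all genes. Without replicate 3 Prdm1 (2.99), Ighm (2.58) and Sdc1 (1.42) passed, beside 15.6% of all genes. Beside the high Sdc1 and Prdm1 of replicate 1, its melanocyte genes had a mean log2 value of 6.95, against 9.81 to 10.50 in the 22 NonResponder samples without high Glycam1, and its fibroblast genes 12.62, against 6.23 to 9.68. Responder replicate 21, with the second highest Prdm1 value outside the 3 arrays (8.68) and a high Sdc1 value (9.87), had 6.70 and 12.42 on the same 2 lists and 13.76 for skeletal muscle genes. The part of fibroblasts and other stromal cells in Sdc1 and Prdm1 was not tested.

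Against Responder samples, Stabilization differed in 0 of 6 members with all arrays, beside 0.319% of all genes (limma, 2 at an unadjusted p under 0.05, 1 by robust regression). Sdc1 differed by 0.85 (adjusted p = 0.0743) and, without the 3 arrays, was higher by 0.88 ± 0.22 (adjusted p = 0.0241), beside 0.951% of all genes. Replicate 1 had an Sdc1 value of 11.47. Replicates 2 and 3 had 9.10 and 9.03, beside a Responder median of 9.09 in the smaller series without high Glycam1. With the high Glycam1 arrays kept, 0 of 6 members were higher without replicate 1, beside 0.0055% of all genes. It was 1 without replicate 2, beside 0.319%, and 2 without replicate 3, beside 6.51%. The 2 GrowthDelay samples had Jchain values of 5.48 and 6.08, Ighm values of 8.38 and 7.68 and Prdm1 values of 5.48 and 4.99. These lay within the NonResponder range, and 0 of 6 members differed from NonResponder samples, beside 0.0% of all genes, at differences of -0.36 to 0.10 (limma, 0 at an unadjusted p under 0.05, 0 by robust regression). A group of 2 gives little precision.

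Across tumours, with the title series pooled, Jchain, Ighm and Mzb1 varied together more closely than they did with the regulators. After subtraction of the title series mean, over the 87 arrays without high Glycam1, Jchain and Ighm had a Pearson r of 0.90 and a Spearman rho of 0.91 (permutation test with 100000 resamples, adjusted over 15 pairs, p = 1.9e-05 and 2.5e-05, near the smallest it can give). The r was 0.89 without the 2 arrays farthest from the Jchain median, 0.90 in the larger and 0.90 in the smaller series. Jchain and Mzb1 had an r of 0.83 and a rho of 0.81, and Ighm and Mzb1 0.76 for both. Jchain and Ighm still had an r of 0.87 and a rho of 0.90 when the mean of each group was also subtracted, a setting added after the data were seen.

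Prdm1 went with Ighm (r 0.67, rho 0.68) and with Jchain (r 0.58, rho 0.62), and with Sdc1 at an r of 0.61 but a rho of 0.43. Prdm1 and Mzb1 had an r of 0.53 and a rho of 0.59. Within the larger series their r was 0.83, above the 0.78 of Jchain and Mzb1, with a rho of 0.65 against 0.75. Within the smaller series their r was 0.31 and their rho 0.60. Xbp1 was at an r of 0.49 with Prdm1, 0.45 with Ighm and 0.36 with Jchain. Its r to Mzb1 was 0.29 (adjusted p = 0.0089) with a rho of 0.21 that did not pass (adjusted p = 0.059, permutation). Sdc1 was least tied to Jchain, Ighm and Mzb1, with an r of 0.32 to Ighm (adjusted p = 0.003, rho 0.25, adjusted p = 0.029, permutation). Its r to Jchain was 0.24 (adjusted p = 0.028) with a rho of 0.20 that did not pass (adjusted p = 0.061, permutation), and to Mzb1 0.16 (adjusted p = 0.13) with a rho of 0.18 (adjusted p = 0.097, permutation). Of the 15 pairs, 15 passed by rho with all 90 arrays and 12 without the 3, where 11 passed in the larger and 8 in the smaller series. The arrays share a platform and a normalization, and tumours differ in several cell types at once.

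**Figure D4:**
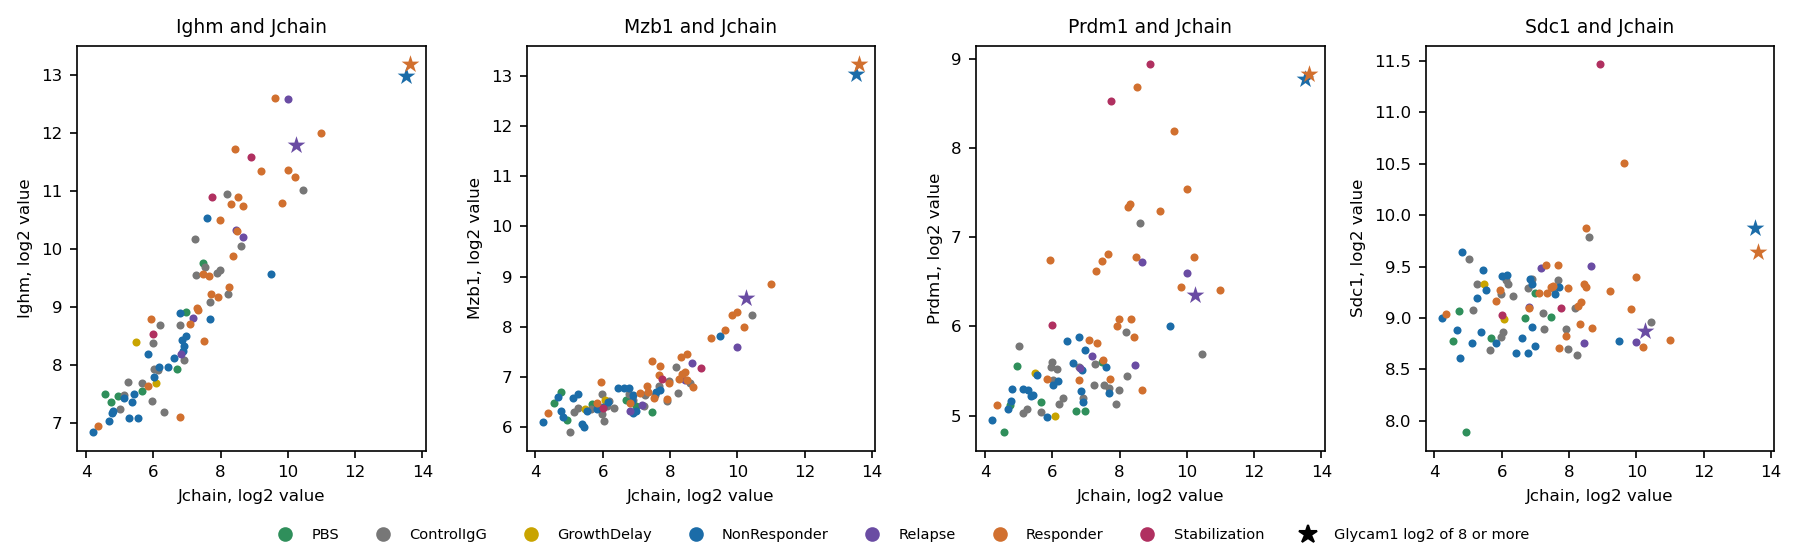
Log2 values of Ighm, Mzb1, Prdm1 and Sdc1 against Jchain in the 90 arrays, coloured by group, with stars for the 3 arrays with a Glycam1 log2 value of 8 or more. Ighm follows Jchain over its whole range (r 0.90 over the other 87 arrays), Mzb1 stays near 6 to 7 until Jchain passes about 8, and Sdc1 shows little relation to Jchain (r 0.24).

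The genes whose values ranked the 87 arrays most like Jchain were Igkv8-30 (Spearman rho 0.95), Igk (0.86) and Iglv1 (0.86), all light chain genes. The same Igkv8-30, Igk and Iglv1 led for Mzb1 at 0.76, 0.74 and 0.73. For Ighm, Igkv8-30 (0.89) was followed by C1qc (0.82), a complement gene of macrophages, and Vcam1 (0.81). Prdm1 had Tnfrsf1b, Csf2rb and Csf2rb2, each at 0.89, Xbp1 had Gopc (0.85), Vim (0.84) and Fndc3b (0.84), and Sdc1 had P4hb (0.73), Nrbp1 (0.67) and F7 (0.65). The nearest genes of Jchain and Mzb1 were thus antibody light chain genes, and those of Prdm1, Xbp1 and Sdc1 were not.

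The lists that follow are read against all genes in the same comparison, of which 17.2% were higher and 29.8% lower with all arrays, and 19% and 32.9% without the 3. Among 17 other antibody chain genes, 3 were higher and 1 lower in Responder than in NonResponder samples, and 5 higher and 1 lower without the 3 arrays, with a median difference of 0.12 in both, beside -0.06 over all genes. The share called higher with all arrays was thus near that of all genes. The list does not hold Igk. Outside the 3 arrays its mean log2 value was 4.31 to 5.91, below the median of all genes, 7.01, so many of its genes were dim. Igkv8-30, a kappa variable segment, was higher by 1.86 (adjusted p = 0.000889), Iglv1, a lambda variable segment, by 1.09 (adjusted p = 0.0337) and Igha, the IgA heavy chain, by 0.97 (adjusted p = 0.0223). Ighg3, an IgG heavy chain, was at 0.17 (adjusted p = 0.623), and Igkv1-135 was lower by -0.16 (adjusted p = 0.011). Of the surrogate light chain genes of B cell precursors, 0 of 3 were higher and 2 lower.

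Of 11 further genes of the plasma cell program, 5 were higher with all arrays and 8 without the 3, with a median difference of 0.60 and 0.64. Slamf7, a surface receptor of plasma cells that T and NK cells also carry, was higher by 1.09 (adjusted p = 0.000194), Cd27, a receptor of memory B cells, plasma cells and T cells, by 1.12, Zbtb20 by 0.51 and Ell2, an elongation factor that favours secreted heavy chain, by 0.68. The secretory pathway and Xbp1 target list did not move as 1 group, with 6 of 29 higher and 7 lower (8 and 9 without the 3 arrays) and a median of 0.01, and these counts lay near the 17.2% and 29.8% of all genes. Ern1, the sensor that splices Xbp1 RNA, was higher by 0.43 (adjusted p = 0.00431) and Sel1l, of the degradation machinery of the endoplasmic reticulum, by 0.34, while Fkbp11 was at -0.60 (adjusted p = 0.00127) and Ssr4 at -0.33.

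Of 11 genes for plasma cell survival and recruitment, 4 were higher and 4 lower, beside 17.2% and 29.8% of all genes. Tnfsf13b, which encodes the survival factor BAFF, was higher by 0.69 (adjusted p = 0.000304), while Ccl28, a chemokine for IgA plasma cells, was at -0.29 and its receptor gene Ccr10 at -0.23. B cell genes were higher in 3 of 13 cases with all arrays, near the 17.2% of all genes, and in 8 without the 3, beside 19% of all genes, with 1 lower then and a median of 0.40 and 0.44. Among the genes of this list with the smallest p, Blnk, an adaptor of the B cell receptor that myeloid cells also express, was higher by 0.94. Ebf1 was higher by 0.70 and Cd22 by 0.59. The part of other cell types in these 3 genes was not tested. The mean log2 value of the B cell genes outside the 3 arrays was 5.04 to 5.56 in NonResponder and 4.94 to 6.58 in Responder samples.

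Genes of other cell types also differed in this comparison. T cell genes were higher in 7 of 9 cases (median 1.19), macrophage genes in 9 of 10 (0.86) and fibroblast genes in 10 of 10 (1.08), beside 17.2% of all genes. Adipocyte genes were higher in 1 of 5 cases (0.67) and melanocyte genes lower in 3 of 10 (-0.28), near the 17.2% and 29.8% of all genes. Of the genes of plasmacytoid dendritic cells, a type that also expresses Mzb1, 1 of 8 was higher and 1 lower, and of the keratinocyte genes 1 of 11 was higher and 4 lower. Skeletal muscle genes had 0 of 6 called (limma, lowest unadjusted p = 0.306, for Ckm), and lymph node stroma genes had 1 of 5 higher (Ltb, 1.43) and 1 lower (Madcam1, -0.30). The part of these cell types in the member differences was not tested.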

How the data were processed

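RNA of 90 subcutaneous tumours (800 ng of total RNA per array) was measured on Affymetrix mouse arrays. The authors deposited log2 intensity values per probe set, which were used as deposited. The submitters' processing notes name RMA and limma, with no version. Values ran from 2.19 to 14.84, with array medians of 5.71 to 5.90. The number of arrays limits the precision.

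Groups came from the treatment label. Of 45101 probe sets, 64 controls were left out, 34945 carried 1 gene symbol, 932 several and 9160 none. The highest-mean probe set stood for each of 18193 genes. limma 3.58.1 in R 4.3.3 (lmFit, eBayes) was fitted on all arrays with group and title series as terms, and tested on simulated data. Within-series differences came from a mean per group and series. Permutation tests used numpy 2.4.6 in Python 3.11.15, with ranks from scipy 1.17.1. Alternatives were leaving out arrays with a Glycam1 log2 value of 8 or more, no series term, quantile normalization, median centring, a filter on dim genes, robust regression, every probe set and leaving out single samples. Within-series fits and fits of every probe set without the high Glycam1 arrays, and the within-series fit without NonResponder replicate 14, were added after seeing the data.

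Members and lists were chosen with earlier results of these data known. Named were all members with every probe set, up to 4 genes per list with the smallest p for Responder minus NonResponder, the 3 genes ranked most like each member, and antibody segment genes. Ighg3 was named from that list. List genes without a named probe set were not analysed here.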

Additional observations from a re-analysis of the deposited data

Results flagged for a closer look

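Single arrays far from the rest of their group were looked for in 36 combinations of 1 gene and 1 set of 4 to 10 arrays. A set was a group within a title series or a whole group across series. Of these combinations 6 held an outlying value, where chance gives about 1 in 20. The combinations share arrays and are not independent. Groups of more than 10 arrays in a series, such as that of NonResponder replicate 14, were not searched. In Responder replicate 20 the Mzb1 log2 value was 13.23 (others 6.91 to 8.86) and the Xbp1 value 13.14 (others 11.25 to 12.23), and this is 1 of the arrays with high Glycam1. In NonResponder replicate 16, whose Glycam1 value was under 8, Jchain was 9.50 (others 4.76 to 6.98) and Mzb1 7.82 (others 6.07 to 6.79). In control IgG replicate 17 Mzb1 was 8.23 (others 6.14 to 6.92). In PBS replicate 5 Sdc1 was 7.89, below the other 6 PBS arrays of both series at 8.77 to 9.24. Among the 4 PBS arrays of its own series, whose Sdc1 mean was 8.62 against 9.11 in the larger series, it did not stand out by the same measure. The reason for these values was not tested.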

How the results depend on the processing

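Every difference kept its direction where the member was called. For Responder against NonResponder, 3 of 6 members became 5 without the arrays with high Glycam1 and by robust regression, and 0 within the larger series (3 there without NonResponder replicate 14 alone). For Responder against control IgG, 3 became 5 without those arrays, with no series term and by robust regression, 4 with median centring, 2 with quantile normalization or every probe set, and 1 within the larger series. For Relapse against NonResponder, 2 became 0 within the larger series with or without those arrays, 1 within the smaller series without them, 1 with no series term, with quantile normalization or with every probe set, and 5 by robust regression. For Stabilization against NonResponder, 2 became 4 without those arrays (4 also within the smaller series) and 0 to 3 when 1 sample was left out. With the filter on dim genes it was 1 of the 4 members tested. That filter removed Prdm1 and Mzb1, whose mean log2 values of 5.90 and 6.93 lay below the median of all genes, 7.01. Of the 15 correlations, 15 passed by rho with all arrays and 8 within the smaller series. The cause of these shifts was not tested, except that fewer arrays entered the within-series values. No paired analysis was possible because the labels do not link arrays of different groups. The labels give no replicate numbers, and those used here number the arrays of each group in the deposited order. With 2 to 6 samples, GrowthDelay, Stabilization and Relapse are measured least precisely. Dim Ighm probe sets, near the lower end of the scale, limit what their differences can show.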
